A study of Mus musculus with 6 samples.

Results

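The transcriptome of the uninjured adult mouse lens is described here from the 3 wild-type libraries of a series of 6. Each wild-type (WT) library was made from total RNA of 2 whole lenses of C57BL/6 mice at 2 months of age, and the labels call the 3 libraries biological replicates. The other 3 libraries, from fibronectin conditional knockout lenses on a mixed background of C57BL/6, 129 and FVB/N, were not used here. The labels state the genotype, strain and age of the mice but not their sex. Every row of the deposited table was ranked by its mean FPKM over the WT libraries that held a value, and rows whose symbols began with Mir, Snor, Trna, n-T or Rn were left out as small RNA. FPKM divides the fragments sequenced from a transcript by its length and by the library's total, so levels of different genes can be compared per length. Of 41449 rows, 39594 were ranked. By matching symbols to RefSeq, 21461 of the ranked rows were protein-coding genes, and 8250 of these had a mean of 1 FPKM or more. WT replicate 2 had no value in 3419 ranked rows, which lie on late chromosome 9, the mitochondrial genome and chromosomes X and Y, so the mean of these genes has n = 2.

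The lens is a transparent tissue without vessels or nerves. A single layer of epithelial cells covers its front surface, and cells at the equator leave the cycle, elongate and become fiber cells, which fill the rest of the lens and lose their nuclei and organelles as they mature. Fiber cells are packed with crystallins, the soluble proteins that give the lens its refractive power. The alpha crystallins are small heat shock proteins with chaperone activity, while the beta and gamma crystallins are related structural proteins. A basement membrane, the lens capsule, encloses both cell types, and gap junctions, water channels and ion pumps keep the inner cells supplied. Because whole lenses were used, a low value from few cells cannot be told apart from a low value with less RNA in each cell.

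The ranked list was led by crystallin genes and by non-coding rows. The highest row, LOC108167755, a predicted long non-coding RNA on chromosome 1, was listed at 443341, 278206 and 344817 FPKM in WT replicates 1, 2 and 3, and held 26.3% ± 4.90 (SD, n = 3) of the FPKM summed over ranked rows. Of the 30 highest rows, 10 were crystallin genes, 1 was this row and 19 were copies of the 5S ribosomal RNA gene, each 121 bases long. The 30 copies above 10000 FPKM had means between 12618 and 12739, while another copy, n-R5s136, had a mean of 683 FPKM, and reads of near-identical copies cannot be assigned to single genes. Protein-coding rows together held 41.2% ± 3.17 of the ranked FPKM. For this reason the levels and shares that follow are given over protein-coding genes, a restriction chosen after the values had been seen.

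Crybb2 was the most abundant protein-coding transcript in all 3 libraries. It encodes a beta crystallin and lies at chr5:113058258-113070117 on the mm10 assembly. Its level was 94689 FPKM in WT replicate 1, 97499 in replicate 2 and 98591 in replicate 3, and it held 17.6% ± 0.338 of protein-coding FPKM. The next gene, Crygc (chr1:65071525-65073532), a gamma crystallin, was at 38778, 44361 and 39894 FPKM, so that Crybb2 was between 2.2 and 2.47 times as high within a library. Cryaa (chr17:31677931-31681730), the alpha A crystallin, followed at 37678, 40686 and 39018 FPKM. Crygc was above Cryaa in every library by between 1.02 and 1.09 times, but their ranges over the libraries overlapped. The order of the 30 leading genes was less certain between close neighbours: the ranges overlapped in 13 of the 29 neighbouring pairs.

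**Figure D1:**
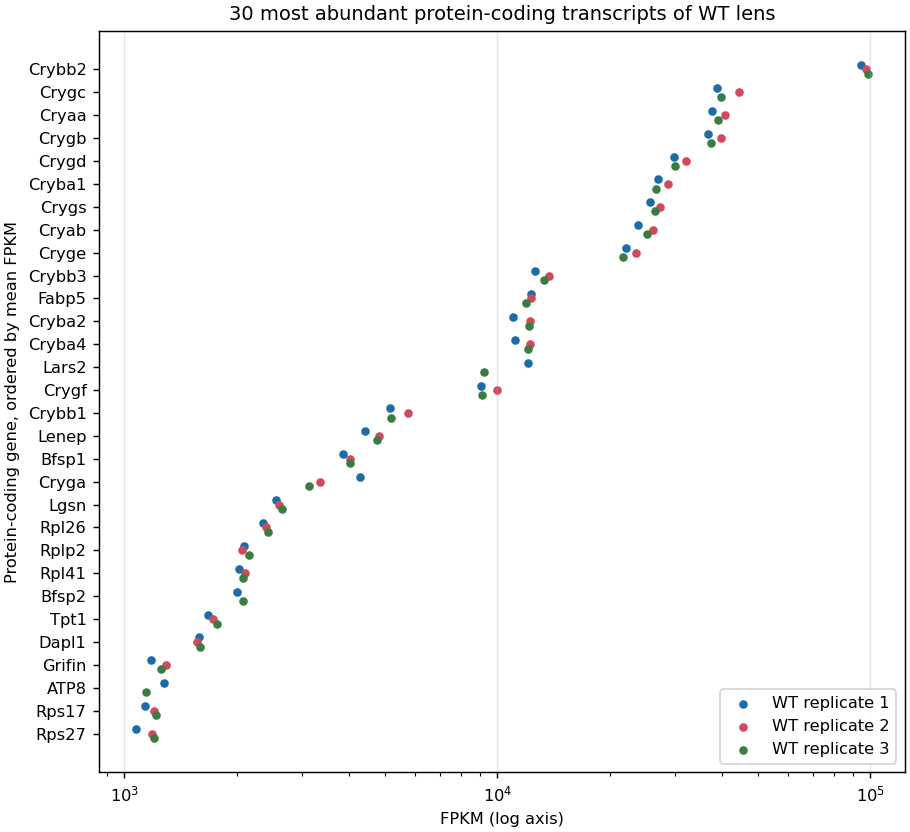
FPKM of the 30 most abundant protein-coding genes on a log axis, with 1 point for each WT library and genes ordered by their mean. Crybb2 stands apart at 94689 to 98591 FPKM, 15 of the 30 genes are crystallins, and Lars2 and Cryga show the widest separation between libraries among the leading genes; Lars2, Bfsp2 and ATP8 have no value in WT replicate 2.

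The 16 crystallin genes with a row held 72.9% ± 0.637 of protein-coding FPKM, and 15 of them were among the 20 highest protein-coding genes. Within each library 7 genes made up 50% of protein-coding FPKM. All 7 leading genes by mean were crystallins. Over the mean of the libraries, 285 of the 21461 genes made up 90%. The gamma crystallins held 31.1% ± 0.740, the beta crystallins 30.2% ± 0.181 and the alpha crystallins 11.6% ± 0.133. The gamma share was above the beta share in replicates 1 and 2, at 31.1% against 30.2% and 31.8% against 29.97%, while in replicate 3 both were at 30.3%, so the 2 families could not be ordered.

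Among the beta crystallins, Crybb2 was followed by Cryba1 at 26919, 28702 and 26605 FPKM. Crybb3 was at 12602, 13744 and 13356 FPKM, Cryba2 at 11041, 12265 and 12194, and Cryba4 at 11137, 12210 and 12100. Cryba2 and Cryba4 could not be ordered, since each was higher in some library. The lowest of the 6 beta crystallins, Crybb1, was at 5140, 5763 and 5190 FPKM. Of the alpha pair, Cryab, the alpha B crystallin that many tissues use as a stress chaperone, was at 23779, 26075 and 25264 FPKM, and Cryaa exceeded it by between 1.54 and 1.58 times in each library. Another small heat shock protein, Hspb1, reached 992, 1193 and 1077 FPKM, whereas Hspb6 had a mean of 2.23 FPKM and Hspb7 a mean of 0.00134 FPKM.

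The gamma crystallins ranged widely in level, from a mean of 41011 FPKM for Crygc to 234 FPKM for Crygn. Crygb was at 36652, 39718 and 37424 FPKM, Crygd at 29803, 32016 and 29906, and Cryge at 22132, 23567 and 21785. Crygs, which lies on chromosome 16 apart from the cluster on chromosome 1, was at 25641, 27244 and 26421 FPKM. Crygf was lower at 9033, 9967 and 9108 FPKM, and Cryga lower again at 4294, 3342 and 3134. Cryga was the most variable crystallin, with a coefficient of variation (CV, the SD as a percent of the mean) of 17.2%, and WT replicate 1 stood above the others. Crygn, the distant relative that links the beta and gamma families, had only 236, 235 and 231 FPKM, and was the 1 crystallin outside the 20 leading genes. Crygd, Cryge and Crygf are close paralogs, and the treatment of reads that map to several places is not given in the sources used here, so the division of FPKM between them is uncertain.

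From Cryga to Crygc the clustered gamma genes differed in level by 9.03, 13.3 and 12.7 times in replicates 1, 2 and 3, and the stretches just before their start sites are printed to show how alike these are. Each stretch holds the 70 bases upstream of the start in RefSeq (assembly GRCm38.p6), written 5′ to 3′ along the gene's own strand. Capitals mark the first 6-letter box TATATA of each stretch. In Crygb and Cryga the letters that follow complete an overlapping copy, which is not marked.
Crygc: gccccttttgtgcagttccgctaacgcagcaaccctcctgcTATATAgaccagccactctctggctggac
Crygb: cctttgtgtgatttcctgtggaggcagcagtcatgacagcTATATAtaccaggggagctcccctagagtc
Crygd: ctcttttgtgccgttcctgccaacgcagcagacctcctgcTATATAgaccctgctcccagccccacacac
Cryge: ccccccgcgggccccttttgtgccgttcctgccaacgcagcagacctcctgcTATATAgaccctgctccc
Crygf: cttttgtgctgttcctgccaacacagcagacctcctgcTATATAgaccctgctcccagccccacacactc
Cryga: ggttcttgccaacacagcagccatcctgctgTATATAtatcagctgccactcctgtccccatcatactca
Cryaa: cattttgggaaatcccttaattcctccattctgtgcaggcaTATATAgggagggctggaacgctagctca
The first 5 and Cryga lie on chromosome 1, at chr1:65073533-65073602, chr1:65082291-65082360, chr1:65063441-65063510, chr1:65051164-65051233 and chr1:65926452-65926521, with Cryga at chr1:65103364-65103433. Only Crygf of these is on the plus strand. The Cryaa stretch is chr17:31677861-31677930 on the plus strand. The marked box begins 30 bases before the start in Crygb and Crygd, 29 in Crygc and Cryaa, 32 in Crygf and 39 in Cryga. It begins 18 bases before the start in Cryge, whose annotated start lies further upstream relative to the shared sequence. The longest run shared by the Crygd and Cryge stretches was 56 bases, and that of Crygd and Crygf 45 bases, although the 3 genes ranged from 9369 to 30575 FPKM in the mean.

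Promoter windows were found for 15 of the 16 crystallins, and Cryab was without an entry. TATATA, which reads the same on both strands, lay within 50 bases before the start in 8 of the 15. These were Cryaa, Cryga, Crygb, Crygc, Crygd, Cryge, Crygf and Crygn, all but Cryaa being gamma crystallins, some with shared upstream runs. It lay in 1.35% of all 32851 promoter windows of that length and in 1.82% of protein-coding genes with a window. Of the 100 highest protein-coding rows, crystallins among them, 73 had a window and 13.7% of these held TATATA. The usual TATA box letters TATAAA, searched on both strands in the same window, were found in Cryba1, Crybb1 and Crygs. They were in 3.50% of all windows, 4.69% of the protein-coding genes and 8.22% of the 73 highest rows. CCTCCTGCTATATAGACC, searched on both strands and the longest run common to the last 50 bases before the start of Crygc, Crygd, Cryge and Crygf, was held by 4 of all 32851 windows, those of Crygc, Crygd, Cryge and Crygf. TGCTGA, the core of the element bound by Maf factors, was present on either strand within 250 bases in 10 of the 15 crystallins and in 16.1% of all windows. These matches describe the letters and not binding.

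Outside the crystallins, the most abundant protein-coding gene was Fabp5, a fatty acid-binding protein, at 12274, 12328 and 11911 FPKM. Lenep, a small protein first found in lens epithelium, was at 4424, 4819 and 4756 FPKM. Lgsn, a lens relative of glutamine synthetase, was at 2545, 2594 and 2652 FPKM, and Grifin, a lens galectin relative, at 1179, 1296 and 1256. Dapl1 was at 1589, 1562 and 1591 FPKM, with a CV of 1.03%. These 5 genes were separated from one another by more than the spread between libraries. The row of Lars2, which encodes the mitochondrial leucyl-tRNA synthetase, was listed at 12065 FPKM in replicate 1 and 9184 in replicate 3. Its 2 values differed more than those of the crystallins around it. Whether the fragments counted in this row came from Lars2 mRNA was not tested, so its place among the leading genes is uncertain.

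The filament genes of the fiber cell were abundant. Bfsp1 (filensin), a subunit of the beaded filament that is found in lens fibers, was at 3849, 4031 and 4036 FPKM. Its partner Bfsp2 (phakinin, also called CP49) was at 2000 FPKM in replicate 1 and 2082 in replicate 3, and Bfsp1 was 1.93 to 1.94 times as high in these libraries. Vim (vimentin), the filament protein of both lens cell types, was at 731, 772 and 787 FPKM, and Synm (synemin) had a mean of 39.3 FPKM. Of 12 intermediate filament genes on the list, 8 had a mean of 1 FPKM or more. Genes of the membrane skeleton were lower but broad, since 29 of 30 listed genes were at 1 FPKM or more. Actb (beta actin) was at 335, 367 and 365 FPKM, Sptan1 (alpha II spectrin) at 194, 203 and 204, and Ank2 (ankyrin B) at 73.7, 79.0 and 77.9. Among tubulins, Tuba1a led at 112, 122 and 125 FPKM.

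All 29 genes on the list of fiber-enriched genes and 21 of the 27 epithelium-enriched genes were at 1 FPKM or more. At the same level were 8250 of all 21461 protein-coding genes. The lists were chosen with earlier results of these data known, so the counts describe the lists and are no test. The same background and limit hold for the counts at 1 FPKM or more of the other gene lists. The lowest fiber gene, Hopx, had a mean of 11.6 FPKM. Among fiber genes that are not crystallins, Lim2, a fiber membrane protein, was at 925, 959 and 995 FPKM. Tdrd7, an RNA granule protein, had a mean of 220.8 FPKM, and Dnase2b, the nuclease that degrades fiber DNA, was at 43.2, 46.4 and 44.1. The summed FPKM of the fiber list was 111 ± 3.14 times that of the epithelium list. Without its crystallins the fiber list was 15.3 ± 0.133 times as high. Fabp5 and Lenep, both counted on the fiber list, carried most of that figure. Their means were 12171 and 4666 FPKM, of a summed 26991 FPKM without crystallins. The makeup of the lists sets this ratio as much as the tissue does, so it is a description of these lists.

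Of the epithelial list, Cd24a, a small surface glycoprotein, was the highest at 828, 838 and 848 FPKM, followed by Igfbp7 at 448, 491 and 466. Sparc, a matrix-binding protein of basement membranes, was at 171, 180 and 178 FPKM, and Sfrp1, a secreted Wnt antagonist, at 120, 127 and 124. Foxe3, the transcription factor that marks lens epithelium, was at 11.0, 11.8 and 14.5 FPKM, and Cdh1 (E-cadherin) at 8.18, 9.33 and 8.24. Genes of cell division were low but present: Mki67 was at 1.49, 1.46 and 1.75 FPKM and Top2a at 1.16, 0.779 and 1.09. Krt8 was at or under 0.231 FPKM, and the listed genes Lum and Sfrp2 were under 0.1 FPKM in every library.

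Of 30 transcription factors and regulators of the lens lineage, 22 were at 1 FPKM or more. Maf, which activates crystallin genes, was at 62.1, 67.1 and 63.4 FPKM. Prox1, needed for fiber elongation, was at 57.8, 60.5 and 59.0, and Hsf4, a fiber heat shock factor, at 46.4, 47.8 and 54.7. Pax6, the factor at the head of eye development, was at 19.0, 19.0 and 19.9 FPKM. Sox1 and Six3 had means of 13.6 and 12.4 FPKM. Sox2 was at 8.65, 9.66 and 9.18 FPKM, whereas Sox11 was under 0.1 FPKM in every library and Otx2 was between 0.0706 and 0.552.

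Water channels and gap junction genes were concentrated in a few members. Mip, also known as aquaporin 0 and the main membrane protein of fibers, was at 464, 503 and 509 FPKM. Aqp5 was at 28.0, 28.1 and 27.3 FPKM, and Mip exceeded it by between 16.6 and 18.7 times. Aqp1, the water channel of lens epithelium, was at 4.19, 5.48 and 6.14 FPKM. The other 9 aquaporins included Aqp4 with a mean of 3.95 FPKM, and 5 of the 12 were under 0.1 FPKM in every library. Gja3 (connexin 46), a fiber connexin, was at 86.7, 90.3 and 87.0 FPKM. Gja1 (connexin 43), the epithelial connexin, was at 20.5, 19.3 and 21.6 FPKM, and Gje1 had a mean of 3.45. Of the 22 connexins and pannexins, 14 were under 0.1 FPKM in every library, and 8 of them were listed at 0. For comparison with both families, 37.0% of all protein-coding genes ranked were under 0.1 FPKM in every library with a value. Listed at 0 were 23.1%. The aquaporin count under 0.1 FPKM is thus near this background.

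Among pumps and channels, the highest was Fxyd1 (phospholemman), a regulator of the sodium pump, at 75.2, 76.6 and 85.7 FPKM. The subunit Atp1b3 was at 56.7 FPKM in replicate 1 and 56.3 in replicate 3, and was 4.96 to 5.89 times as high as Atp1b1. The glial subunit Atp1b2 was lower in replicate 2 than in the others, at 1.43 against 2.33 and 3.05 FPKM. Of 24 ion exchangers and channels, 11 were at 1 FPKM or more. Trpm3, a cation channel whose gene hosts a lens microRNA, was at 51.8, 50.1 and 51.8 FPKM, and the next member, the cotransporter Slc12a2, had a mean of 6.75 FPKM.

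The glucose transporter of the WT lens at the RNA level was Slc2a1 (GLUT1), at 30.6, 36.9 and 34.2 FPKM. Slc2a3 (GLUT3) was at 0.0796, 0.0732 and 0.0479 FPKM. Amino acid carriers were led by Slc3a2 at 17.8, 20.1 and 21.8 FPKM and Slc7a8 at 18.2, 19.1 and 20.1. Slc6a6, the taurine carrier, varied more, at 17.1, 14.2 and 21.1 FPKM. Slc38a2, a neutral amino acid carrier, had the smallest spread of the 1708 rows of 10 FPKM or more with 3 values and a symbol that is not a predicted gene: its values of 15.3 in each library gave a CV of 0.243%. Slc7a11, the cystine carrier used to make glutathione, had a mean of 4.45 FPKM.

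Glycolysis was carried by 19 of 20 listed genes at 1 FPKM or more. The most abundant was Pgam2, the muscle form of phosphoglycerate mutase, at 168, 151 and 174 FPKM. Its ubiquitous paralog Pgam1 was at 9.26, 10.5 and 10.3, so that Pgam2 was 14.4 to 18.1 times as high. Gapdh was at 122, 139 and 142 FPKM, Aldoa at 80.7, 84.1 and 87.7, and Aldoc, the brain form of aldolase, nearly as high at 72.0, 78.2 and 80.6. Ldha was at 27.3, 27.8 and 27.6 FPKM, and Ldhb was lower and less even at 1.15, 1.76 and 3.44.

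The antioxidant list had 33 of 37 genes at 1 FPKM or more. Hmox1 (heme oxygenase 1), a stress-inducible enzyme in many tissues, was its highest member, at 207, 213 and 196 FPKM. Sod1 was at 167, 182 and 187 FPKM, Gstm1 at 107, 118 and 120, and Gss (glutathione synthetase) at 65.5, 70.8 and 70.8. The secreted Gpx3 was at 13.7, 9.05 and 18.7 FPKM, a CV of 35.1%. The sorbitol pathway enzymes Akr1b3 (aldose reductase) and Sord had means of 9.40 and 22.1 FPKM. All 32 nuclear genes of oxidative phosphorylation were at 1 FPKM or more, led by Cox6c at 402, 398 and 400 FPKM.

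Of the gene lists that hold no crystallin, the ribosomal protein genes held the largest share. The 79 Rpl and Rps genes with 3 values held 6.57% ± 0.175 of protein-coding FPKM, led by Rpl26 at 2354, 2399 and 2423 FPKM. Tpt1 was at 1674, 1724 and 1775 FPKM. Among chaperones, Hsp90ab1 was at 813, 817 and 851 FPKM and Hspa8 at 674, 695 and 759. The CV of Rpl26 was 1.48%.

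**Figure D2:**
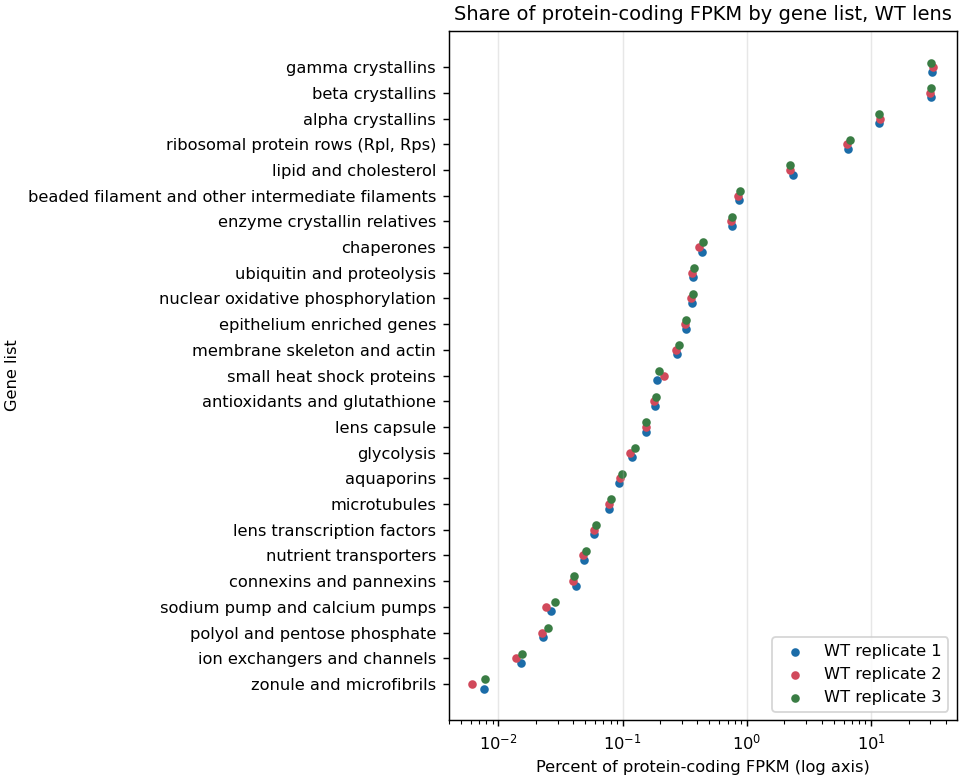
Share of protein-coding FPKM held by each gene list, as a percent on a log axis, with 1 point for each WT library. The gamma, beta and alpha crystallins stand at 31.1%, 30.2% and 11.6% in the mean, ribosomal protein genes at 6.57%, and the lists of transporters, channels and zonule genes lie under 0.1%; lists share some genes, so the shares cannot be added.

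The capsule genes were led by the chains of collagen IV. Col4a1 was at 269, 285 and 285 FPKM and Col4a2 at 144, 150 and 147, so Col4a1 was 1.87 to 1.94 times as high. Nid1 (nidogen 1) was at 113, 118 and 115 FPKM. Col4a3 and Col4a4, chains of the mature type of collagen IV network, were at 32.9, 35.9 and 34.7 FPKM and at 30.3, 31.4 and 30.8. Laminin chains were lower, with Lamb1 at 8.46, 7.91 and 7.59 FPKM and Lama1 at 2.98, 3.16 and 3.50. Fn1 (fibronectin), the gene deleted in the other libraries of the series, was at 0.135, 0.188 and 0.253 FPKM in these WT lenses, under the level of 1 FPKM in all 3. Of the zonule list, whose proteins hang the lens in the eye, Mfap2 was the highest at 17.2, 15.1 and 13.6 FPKM, and Fbn1 (fibrillin 1) was at 3.54, 2.21 and 3.78.

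The 3 libraries ranked genes alike. Over 7657 protein-coding genes with a mean of 1 FPKM or more and 3 values, Spearman's rho between pairs of libraries lay between 0.971 and 0.973, a correlation across genes, which are not independent replicates. The spread fell as the level rose. The median CV was 10.4% for genes of 1 to 10 FPKM, 5.89% for 10 to 100, 4.49% for 100 to 1000 and 4.20% for 1000 or more. Between 0.1 and 1 FPKM it was 26.5%, so single low values should be read with that error. Some groups moved together between libraries: 13 of the 16 crystallins were highest in replicate 2, and 74 of 79 ribosomal protein genes were lowest in replicate 1. For comparison, over all 7657 genes 29% were highest in replicate 2 and 44.8% were lowest in replicate 1. The summed protein-coding FPKM also differed, at 534749, 567798 and 554035 in replicates 1, 2 and 3. As a share of it, the ribosomal protein genes held 6.49%, 6.45% and 6.77%, so replicate 1 was not the lowest on that scale. The crystallin share was 72.8%, 73.5% and 72.2%, still highest in replicate 2.

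The genes of 10 FPKM or more with the largest spread were few. Among 1568 protein-coding genes of that level with 3 values, 7 had a CV above 30%. Sag (rod arrestin) was at 14.7, 6.07 and 18.6 FPKM. Penk (proenkephalin) was at 34.8, 23.6 and 48.6 FPKM. Rdm1 was high in replicate 2, at 23.1, 41.1 and 21.3 FPKM, and Slirp, a mitochondrial RNA-binding protein, was at 9.09, 14.6 and 19.8. Gpx3, given above, and the histone gene Hist2h2bb, at 6.99, 14 and 9.42 FPKM, were also among the 7. Of the other biotypes, Scarna17 was listed at 0, 0 and 214 FPKM, AF357355 at 0, 109 and 0, and the RNA of RNase P, Rpph1, at 6043, 13796 and 7509.

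**Figure D3:**
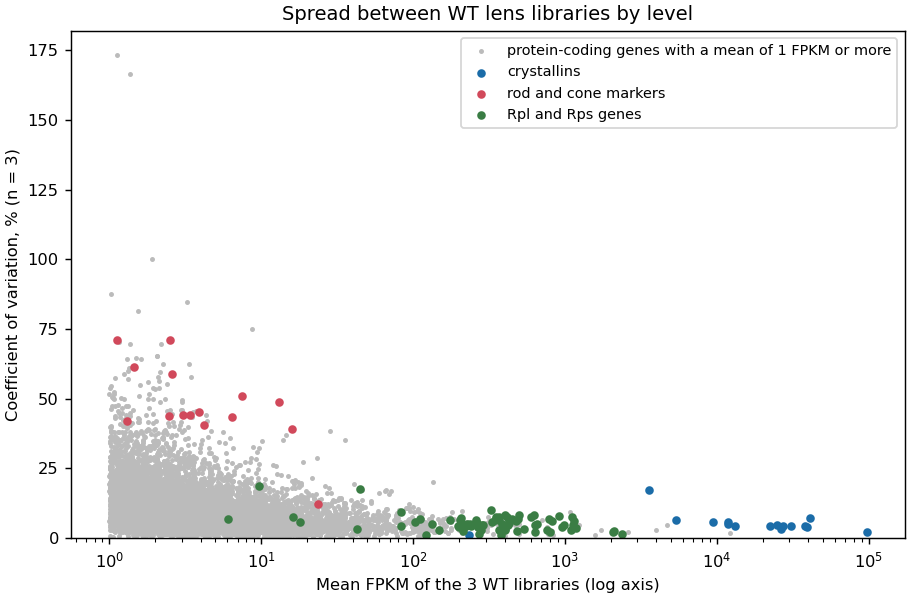
Coefficient of variation between the 3 WT libraries (percent) against mean FPKM on a log axis, for the 7657 protein-coding genes of 1 FPKM or more with 3 values. Crystallins and ribosomal protein genes lie low, with Cryga at 17.2% the highest crystallin, while most rod and cone markers lie in the upper part of the scatter at their level, with Sag at 48.9%.

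The labelled tissue was checked against its markers, and the crystallins, Mip, Bfsp1, Bfsp2 and Lim2, which define lens, were high in every library with a value. Genes of the retina were nevertheless present: of 21 rod and cone markers 16 had a mean of 1 FPKM or more, and none was under 0.1 FPKM in every library. Among the 16 rod and cone markers with 3 values other than the broadly used Gnb1, all 16 were lowest in replicate 2. For comparison, 35.7% of the 7657 protein-coding genes of 1 FPKM or more with 3 values were lowest there. The summed level of the 16 markers was 80.7, 34.2 and 94.7 FPKM in replicates 1, 2 and 3. The neuronal genes Snap25, at 3.66, 1.56 and 3.75 FPKM, and Syt1, at 1.37, 0.455 and 1.40, were also lowest in replicate 2, as was Atp1b2 above. Of the 7 neuron and glia genes at 1 FPKM or more with 3 values, 5 were lowest in replicate 2. Apoe, of the lipid and cholesterol list, was also lowest there, at 148, 105 and 156 FPKM. On that list 10 of the 20 genes at 1 FPKM or more with 3 values were lowest in replicate 2. Whether retinal material moved these genes was not tested.

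Pigment cell markers were low, with Ttr, which ciliary and pigment epithelium secrete, at 6.53, 7.97 and 12.1 FPKM and the melanin enzyme Tyrp1 at 0.436, 0.341 and 0.821. Of the ciliary body and iris list, Ptgds was at 91.0, 91.2 and 100.2 FPKM, and Optc (opticin), a vitreous protein made by the ciliary body, was at 19.8, 14.2 and 20.8. Acta2 (smooth muscle actin) was at 93.0, 99.96 and 105 FPKM, while the smooth muscle genes Myh11, Tagln and Cnn1 were all at or under 0.445 FPKM. Of the 7 cornea markers with a row, 6 were under 0.1 FPKM in every library and Krt12, Kera and Slurp1 were listed at 0. The exception, Aldh3a1, was at 25.6, 28.2 and 30.7 FPKM. Endothelial genes were near 0, since 7 of 9 were under 0.1 FPKM in every library and Cdh5, Emcn, Cldn5 and Tie1 were listed at 0. The macrophage list had a summed level of 4.53 ± 1.60 FPKM over the 16 of its 17 genes with 3 values. Of these, Lyz2 was at 0.864, 0.925 and 2.21 FPKM. The globin genes were at or under 0.345 FPKM in each library.

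**Figure D4:**
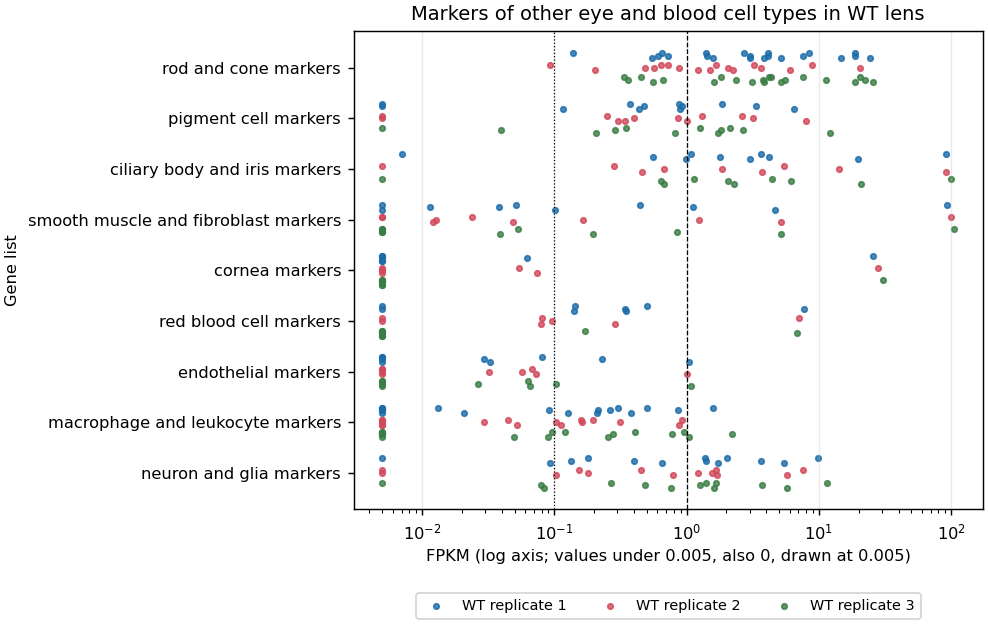
FPKM of marker genes of other cell types on a log axis, with 1 point for each gene and WT library; dotted and dashed lines mark 0.1 and 1 FPKM, and values under 0.005 are drawn at 0.005. Rod and cone markers lie lower in replicate 2 than in the other libraries, with Sag at 6.07 FPKM against 14.7 and 18.6, and the cornea and endothelial lists lie under 0.1 FPKM apart from single genes.

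Receptors and ligands were read against 1 and 0.1 FPKM. For comparison, 8250 of all 21461 protein-coding genes ranked had a mean of 1 FPKM or more. Of 179 receptor genes, 51 had a mean of 1 FPKM or more and 57 (31.8%) were under 0.1 FPKM in every library with a value. Of 169 ligand genes, 36 were at 1 FPKM or more and 85 (50.3%) were under 0.1 in every library. The same criterion held for 37.0% of all protein-coding genes ranked, so the receptor share was a little under this background and the ligand share above it. Listed at 0 in every library with a value were 13 receptors (7.26%) and 45 ligands (26.6%), against 23.1% of all protein-coding genes ranked, so the ligand share was near this background and the receptor share below it. Of 31 chosen ligand and receptor pairs, both genes were at 1 FPKM or more in 10, the receptor alone in 9, the ligand alone in 5 and neither in 7. These counts depend on which pairs were chosen, and Fgf1 and Tgfb2 each occur in more than 1 pair.

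The FGF receptors, which transmit the signal that drives fiber differentiation, were all at 1 FPKM or more except Fgfr4. Fgfr2 was at 18.6, 20.8 and 21.6 FPKM, Fgfr3 at 12.4, 13.7 and 12.6 and Fgfr1 at 7.15, 7.68 and 7.27, and the ranges of these 3 did not overlap. Of 22 FGF ligands only 2 reached 1 FPKM: Fgf1, at 2.34, 2.26 and 2.31, and Fgf12, an intracellular family member, at 2.40, 1.85 and 2.24. Fgf2 was listed at 0 in all 3 libraries, as were Fgf7 and Fgf18. Its antisense neighbour Nudt6 was at 1.23, 1.48 and 0.555 FPKM, and whether strand was used in counting is not given in the sources used here.

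Among the other growth factor receptors, Ngfr (the p75 neurotrophin receptor) was the highest at 17.2, 18.2 and 19.8 FPKM. Pdgfra, with a role in lens growth, was at 7.54, 7.91 and 7.90 FPKM and its ligand Pdgfa at 5.54, 5.96 and 4.24. Pdgfrb was at 4.67, 5.19 and 5.17 FPKM, but Pdgfb had a mean of 0.0317. Igf1r was at 3.61, 3.78 and 4.09 FPKM and Insr at 2.53, 2.27 and 2.76, whereas Igf1 had a mean of 0.128 and both insulin genes were listed at 0. Egfr was just under the level, at 0.884, 1.05 and 0.825 FPKM. Hgf and Gdnf were listed at 0. The highest growth factor ligands were Ptn (pleiotrophin) at 39.5, 38.0 and 47.6 FPKM and Vegfb at 32.9, 29.6 and 33.5.

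In the TGF-beta superfamily, Tgfb2 was the highest ligand at 13.7, 14.4 and 14.4 FPKM, followed by Inhba, the activin subunit, at 10.6, 9.33 and 11.3. Tgfbr1 was at 1.42, 1.45 and 1.42 FPKM. Tgfbr2, the type II receptor that binds TGF-beta, was at 0.0136 FPKM in replicate 1 and 0.197 in replicate 3, with no value in replicate 2. The BMP receptors Bmpr2 and Bmpr1a were at 4.82, 5.06 and 4.98 FPKM and at 4.17, 4.21 and 4.31. Bmp7 had a mean of 2.33 FPKM and Bmp4 of 0.390. The endothelial co-receptor Eng and the receptor Acvrl1 were under 0.1 FPKM in every library.

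The Wnt list was led by ligands. Wnt7b was at 40.7, 45.3 and 45.5 FPKM, Rspo1, a secreted amplifier of Wnt signalling, at 30.3, 29.4 and 31.8, Wnt5b at 11.1, 12.9 and 10.6, and Wnt7a at 7.45, 9.11 and 9.73. The other members fell away quickly, and 14 of the 23 genes, Wnt1 and Wnt3a among them, were under 0.1 FPKM in every library. Of the receptors, Lgr4, which binds R-spondins, was at 5.20, 5.03 and 5.29 FPKM, Lrp6 at 4.47, 4.86 and 4.55 and Fzd6 at 3.36, 3.16 and 3.32, while Lgr5, Lgr6 and Fzd9 were under 0.1 in every library. Jag1, the Notch ligand at the lens equator, was at 5.45, 6.14 and 6.94 FPKM, and Notch2 was at 3.56, 3.79 and 3.75. The hedgehog receptor genes Smo and Ptch1 had means of 5.93 and 3.44 FPKM, whereas Shh, Ihh and Dhh were all under 0.1 in every library.

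**Figure D5:**
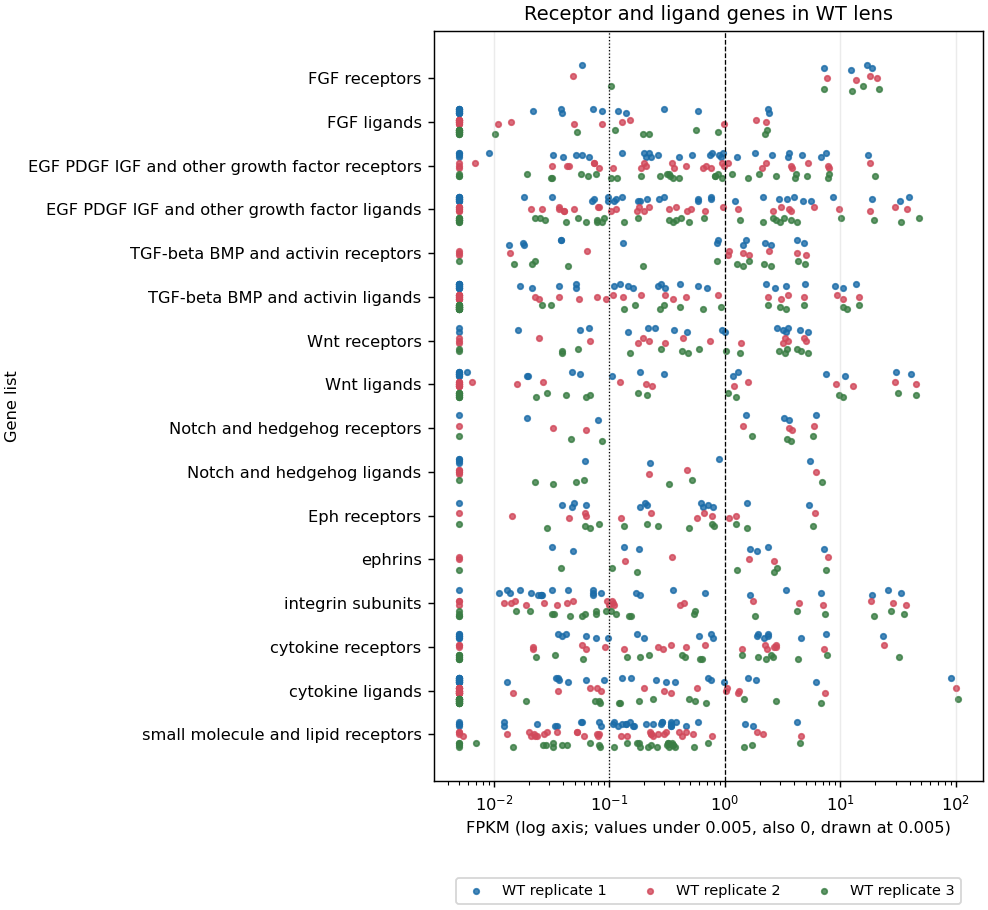
FPKM of receptor and ligand genes by family on a log axis, with 1 point for each gene and WT library; dotted and dashed lines mark 0.1 and 1 FPKM, and values under 0.005 are drawn at 0.005. The FGF receptors lie above 1 FPKM apart from Fgfr4, most FGF and Wnt ligands lie under 0.1, and Wnt7b and Rspo1 stand above 29 FPKM in every library.

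Eph and ephrin genes, which order fiber packing, were led by Epha2 at 5.35, 6.08 and 5.80 FPKM and Efnb2 at 7.23, 7.87 and 7.48, with Efna5 at 2.34, 2.65 and 2.81. Of the integrin subunits, which anchor cells to the capsule, 6 of 26 were at 1 FPKM or more. At the same level were 51 of all 179 receptor genes and 8250 of 21461 protein-coding genes. Itgb5 was at 33.7, 36.7 and 35.6 FPKM, Itga6 at 25.8, 28.4 and 27.2, and Itgb1 at 18.9, 18.5 and 19.5. The leukocyte subunits Itgal, Itgam and Itgax and the hemidesmosome subunit Itgb4 were under 0.1 FPKM in every library. Itga5, which pairs with Itgb1 as the fibronectin receptor, was at 0.673, 0.409 and 0.545 FPKM.

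Among cytokine receptors, Fas, a death receptor, was the highest at 23.3, 23.6 and 32.0 FPKM, and its ligand Fasl was under 0.1 in every library. The shared subunit Il6st (gp130) was at 7.55, 7.14 and 7.67 FPKM, but Il6ra was under 0.1 in every library and Il6 was listed at 0. Mif was the highest cytokine ligand at 89.8, 101 and 103 FPKM, and Il18 was at 6.10, 7.32 and 6.80. The chemokine receptors Cxcr4, Cxcr3 and Ccr2 were listed at 0, as were Il2, Il10, Ifng, Cxcl1 and Ccl4. Of 37 receptors for small molecules and lipids, only S1pr3, Npr2 and S1pr1 reached 1 FPKM, with S1pr3, a sphingosine-1-phosphate receptor, at 4.21, 4.56 and 4.51.

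A value of 0 can also be a failed estimate, so genes that every cell uses were checked for it. Of 396 rows for cytosolic and mitochondrial ribosomal proteins, translation initiation factors, the proteasome, RNA polymerases, the CCT chaperonin and the respiratory chain, 6 were at 0 in all libraries: Rpl10l, Rpl39l, Cox8c, Cox7b2, Eif4e1b and Psmb9. These are forms restricted to certain tissues, chiefly the germ line, or, for Psmb9, to the immunoproteasome. The check covers genes of general use. It cannot show whether a 0 is a failed estimate for a low or overlapping gene, such as Fgf2. Values of 0 beside a very high value did occur outside these rows, as in LOC101056014 at 0, 0 and 8864 FPKM. The fragment totals of the libraries are not in the table. From the steps between low values, 1 fragment was worth 1.117 times as much FPKM in replicate 2 and 1.202 times as much in replicate 3 as in replicate 1. If FPKM was scaled by the fragment totals alone, replicate 1 was the deepest. The steps cannot separate depth from any further scaling between libraries. The smallest whole numbers of fragments that fit 27 single-exon rows gave a median of 14800000 fragments for replicate 1, which is a low estimate where the true numbers are multiples of these. At that depth 0.1 FPKM on a transcript of 2 kilobases would be about 3 fragments, so the order among genes near 0.1 FPKM was not detectable at this depth.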

How the data were processed

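Total RNA of whole lenses was sequenced by the authors after library preparation with a stranded total RNA kit for small inputs, per the labels' protocols. The deposited values are FPKM. The submitters' processing notes name FastQC, cutadapt 1.12, TopHat2 2.1.0, Cuffdiff 2.2.1 and the builds mm10 and GRCm38.p5. How the authors treated strand and fragments mapping to several places is not given in the sources used here, so overlapping genes, antisense genes and near-identical paralogs are uncertain. Only the WT columns were read, with start positions counted from 1. A date stood in place of the symbol in 27 rows, and 1 unreadable entry of WT replicate 3 was left empty.

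Rows were ranked with Python 3.11.15 and pandas 2.3.3. The left-out symbols beginning with Rn include 116 protein-coding genes, the highest being Rnf10 at 35.7 FPKM. Gene types came from the RefSeq table (GRCm38.p6), in which 96.8% of rows matched a symbol, gene number or synonym. Shares, CVs and ratios used rows with a value in all 3 libraries, and no pseudocount except on the log scale, where it was 1 FPKM. No test was made, because only 1 group was described. Genes were described by 51 lists, of whose 921 genes 919 had a row. The genes named were the 30 highest rows, the 4 highest of each list, receptors and ligands at 1 FPKM or under 0.1 FPKM, the largest and smallest CVs at 10 FPKM or more, the 2 highest of each cell type list, and Fn1. Others were chosen after their values were seen, for their known role in lens. The libraries described and the lists were chosen with earlier results of these data known. The scripts were tested on simulated data. Alternatives changed the scaling, the rows kept and the libraries used. Results for some genes are not reported here.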

Additional observations from a re-analysis of the deposited data

Results flagged for a closer look

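A signal was present in rows outside the ranking. The rows left out as small RNA held 20.3% ± 3.01 (SD, n = 3) of the FPKM summed over all rows of the table with 3 values, with no control samples to compare against. The highest of these were Rny3, a Y RNA, at 103822, 113096 and 84649 FPKM in WT replicates 1, 2 and 3, and Rn7s1, a signal recognition particle RNA, at 41680, 80299 and 47311. Their per-length scaling over very short rows was not examined further.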

How the results depend on the processing

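No paired analysis was possible because a single group was described and no test was made. Of 102 values under alternatives, 83 stayed within the spread between libraries or, for counts, within 1.5 times the value given, and 19 moved. Part of the 83 could not move. Scaling a library cancels in a share or ratio within it, and dropping rows outside a list leaves that list unchanged. The count of 83 is therefore not a measure of robustness. The crystallin share of ranked FPKM, 30%, was 27.5% where Rn was left out only before a digit, 45.9% without predicted rows, 42.2% without rows under 300 bases, 40.7% without the highest row and 72.9% over protein-coding rows, the last added after seeing the data. It was 28.2% to 31.3% without 1 library. The number of rows holding 50% of ranked FPKM, 10, became 18, 4 and 23 without predicted rows, rows under 300 bases and the highest row. Receptors under 0.1 FPKM, 57, were 37 at a threshold of 0.05 FPKM and 91 at 0.3. The median CV of ranked rows at 1 FPKM or more, 8.96%, was 8.60% with median-ratio scaling, 11.2% with the same FPKM total, 5.76% at 10 FPKM or more, 26.4% with no filter and 7.01% to 7.73% without 1 library, where each CV rests on 2 libraries. The ratio of the fiber to the epithelium list, 111, was 15.3 without crystallins, also added after seeing the data. The median SD of log2 FPKM was 0.10 with a pseudocount of 1 and 0.13 with 0.1. Crystallins among the 20 highest rows, 10, were 9 without replicate 3.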

Other observations

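Several rows were listed at 0 in some WT libraries and very high in another. Rn18s-rs5, a ribosomal RNA pseudogene on chromosome 17 that was left out of the ranking, was at 0 FPKM in replicates 1 and 2 and at 36585 in replicate 3, and the overlapping row LOC101056014 was at 0, 0 and 8864. Other abundant non-coding rows were present in all 3 libraries: Gm15564 was at 8227, 5045 and 5746 FPKM, and Gm41051 at 6337, 6633 and 6577.

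Genes of the sex chromosomes differed between the WT libraries that held values. Xist, the RNA of the inactive X chromosome, was at 0.0767 FPKM in replicate 1 and 9.75 in replicate 3. The Y-linked genes Ddx3y, Eif2s3y and Kdm5d were at 3.64, 4.75 and 1.01 FPKM in replicate 1 and at 0, 0.0509 and 0.0281 in replicate 3, and Uty was at 1.85 and 0. Replicate 2 had no value in these rows.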
